A study of Rattus norvegicus with 6 samples.

Results

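The BCL2 family decides whether a cell releases cytochrome c from its mitochondria and enters apoptosis. Pro-survival proteins such as BCL2 and BCL-XL bind and restrain the effectors BAX and BAK, which can open pores in the outer mitochondrial membrane. BH3-only proteins such as BIM, BID, BAD and BMF carry a single short domain with which they occupy the pro-survival proteins or, for some of them, engage the effectors directly. In β-cells, unresolved endoplasmic reticulum (ER) stress is known to act on this family, in part through transcription of BH3-only genes. Much of its control is exerted on the proteins, by cleavage, phosphorylation and degradation, which RNA-seq does not measure.

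The family was followed by 10 gene names: the pro-survival genes Bcl2, Bcl2l1 and Mcl1, the effector genes Bax and Bak1, and the BH3-only genes Bad, Bid, Bbc3, Bcl2l11 and Bmf. Of these, 8 were found by name among the 32900 features of the table in which a read that fits several features is counted for each of them (nonunique all), 1 row each, and Mcl1 and Bbc3 were not analysed here. All 8 reached the minimum mean of 5 normalized counts and were tested among 15579 genes.

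The values come from RNA-seq of total RNA from 6 clonal rat INS-1(832/13)::mCherry lines, insulinoma cells that serve as a β-cell model and also carry a human INS-neoR transgene and a mouse Ins2 C-peptide-mCherry transgene. The control lines 5-9, 2 and 16 lack the imprinted Prader-Willi syndrome (PWS) domain on the silent maternal allele, and the PWS lines 3, 19-1 and 19-4 lack it on both alleles. Lines 2, 16, 3 and 19 were isolated from line 5-9 after a further transfection, which was with an EGFP control vector for control lines 2 and 16 and with CRISPR/Cas9 for lines 3 and 19. Lines 19-1 and 19-4 are subclones of line 19, and the paternal deletion of line 3 has a different proximal breakpoint. Each line gave 1 library from untreated cells in 7.5 mM glucose, so that the spread within a group is the spread between clonal lines, with differences between cultures included. Normalized counts are reads per gene divided by the size factor of the library.

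Between 26016478 and 36084261 reads were counted per line. Snurf, a paternally expressed gene of the domain, had 3442 to 4205 reads in the control lines and 0 to 4 in the PWS lines, which checks the labels. β-cell markers were abundant in every line, and 11 of them summed to 527123 to 594390 normalized counts in the control lines and to 283948 to 496015 in the PWS lines, lowest in line 19-4. Most of that sum was Ins1 (means 267175 and 185453) and Iapp (means 217044 and 143222). The hormone genes Ins1, Ins2 and Iapp had log2 differences of -0.57, -0.99 and -0.64, with limma adjusted p = 0.389, 0.432 and 0.364 and DESeq2 adjusted p = 0.115, 0.436 and 0.0651. Without PWS line 19-4 Ins1 was at -0.36 and Iapp at -0.39, and Ins2 was at -0.60 without control line 16. The other 8 β-cell markers ran from -0.22 for Kcnj11 to 0.10 for Mafa. With a line left out in turn, Kcnj11 ran from -0.30 to -0.09, the latter without PWS line 19-4, and Mafa from -0.16 without that line to 0.42 without control line 16, a change of sign that was also seen without control line 5-9 or 2. These marker genes were named after their values were seen. In bulk RNA, fewer cells of a type and less RNA per cell cannot be told apart.

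Of 3 duct cell markers, Krt7 had 1272 to 1900.1 normalized counts in every line, whereas Sox9 had 7.34 to 25.1 and Krt19 had 1 read over all lines. The control and PWS lines overlapped for Krt7 and for Sox9. The 4 macrophage markers summed to 30.4 to 36.7 in control and 32.7 to 36.4 in PWS lines, mostly Cd68, with Ptprc at 0 reads. The 4 acinar markers summed to 12.9 to 35.1 and 23.5 to 32.7, mostly Ctrb1, with Prss1 at 0 reads, and the 2 endothelial markers to 2.85 to 5.51 and 2.39 to 9.09, all Kdr, with Cdh5 at 0 reads. In PWS line 19-4 the 3 α-cell markers summed to 110 (mostly Gcg, with Irx2 at 0 reads) against 1.84 to 23.7 in the other lines. The 2 δ-cell markers summed there to 13.6 (all Hhex, with Sst at 0 reads) against 0.918 to 3.06 elsewhere. Among 4 fibroblast markers nearly all reads were Pdgfra, whose normalized counts were 137, 145 and 165 in control lines 5-9, 2 and 16 and 129.7, 117 and 46.4 in PWS lines 3, 19-1 and 19-4, while Dcn was at 0 reads. The part of these differences in the values of the family was not tested.

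No measured member of the family differed between PWS and control lines beyond the spread between the lines. With limma on log2(normalized count + 1), where each log2 difference is the PWS mean minus the control mean, 0 of the 8 reached the adjusted threshold of 0.05 (Benjamini-Hochberg over all genes), against 0.257% of all tested genes. Without adjustment, 0 of the 8 had a p-value under 0.05, against 11.3% of all tested genes. The quasi-likelihood test of edgeR and DESeq2, both on the recovered reads, also gave 0 of 8, with and without adjustment. By direction, limma called 0.00642% of all tested genes higher and 0.25% lower in PWS lines, and edgeR, with 0.205% in all, called 0.00642% higher and 0.199% lower. DESeq2 called 1.46% of all tested genes, 0.68% higher and 0.783% lower. Without adjustment edgeR had 11.4% and DESeq2 10.4% under 0.05. For none of the 8 were all PWS lines on the same side of all control lines, a pattern that 17.4% of all tested genes showed (8.43% higher and 9.01% lower). On average 3 of the 8 were higher and 5 were lower in PWS lines. The median log2 fold change was -0.05, beside -0.0028 over all tested genes, and the median size of the log2 fold changes was 0.10, beside 0.12 over all tested genes. The median changed sign with RSEM (0.04) and without control line 2 (0.02).

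**Figure D1:**
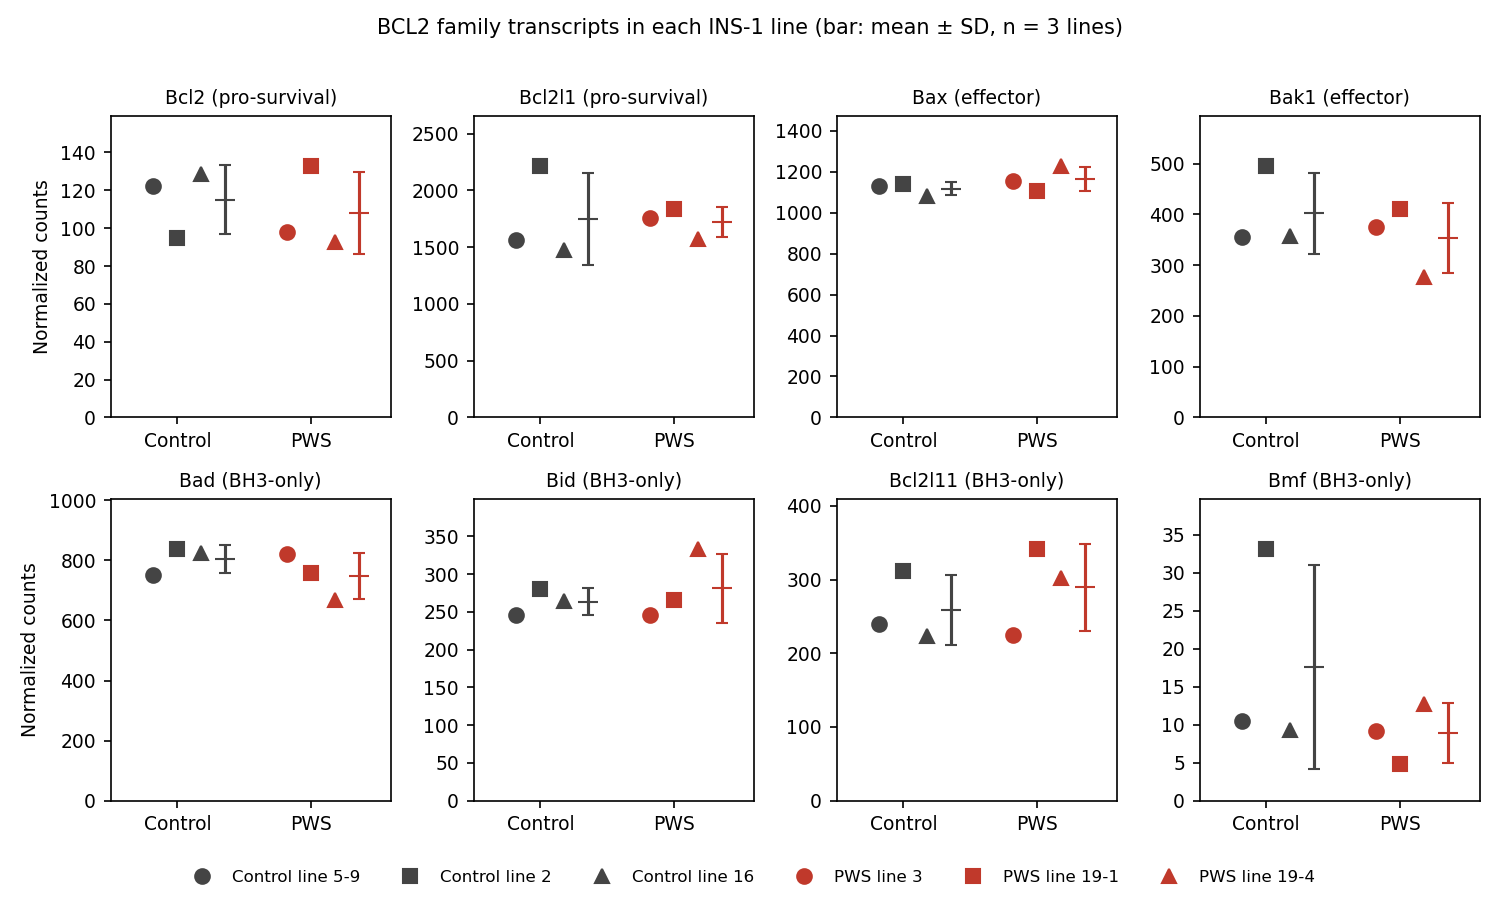
Normalized counts of the 8 measured BCL2 family genes (vertical axes from 0, each with its own scale) in the control lines (grey) and PWS lines (red), 1 point per line, with the mean ± SD of 3 lines beside the points. The points of both groups overlap in every panel, and control line 2 stands above the other control lines for Bcl2l1, Bak1, Bcl2l11 and Bmf.

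Among the pro-survival genes, Bcl2 (ENSRNOG00000002791), which encodes the founding member of the family, had 122, 94.5 and 128 normalized counts in lines 5-9, 2 and 16, the controls. It had 98.01, 133 and 92.7 in PWS lines 3, 19-1 and 19-4. The highest and the lowest of the 6 lines were both PWS lines, the subclones 19-1 and 19-4, and the control lines lay between them. Bcl2 differed on the log2 scale by -0.10 (SE 0.19, limma adjusted p = 0.890), with a 95% interval from a 0.685-fold to a 1.27-fold level. With RSEM, which assigns reads by estimated transcript abundance, the log2 fold change of Bcl2 was 0.09. With the HTSeq values it was -0.26 without PWS line 19-1 and -0.00096 without PWS line 19-4.

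Bcl2l1 (ENSRNOG00000007946) encodes BCL-XL, the pro-survival protein of the outer mitochondrial membrane, and in a shorter splice form a pro-apoptotic protein, which gene counts do not separate. The control lines 5-9, 2 and 16 had 1562, 2212 and 1474 normalized counts, and the PWS lines 3, 19-1 and 19-4 had 1759, 1835 and 1575. The PWS lines all lay within the range of the control lines. The means were 1749 ± 403 (SD, n = 3) and 1723 ± 134 (SD, n = 3), and the log2 difference came to -0.00080 (SE 0.15, limma adjusted p = 0.998), with an interval from 0.790-fold to 1.26-fold. It was 0.18 without control line 2 and 0.06 without PWS line 19-4. Of the Bcl2l1 reads, 78.8% were unique to the gene, the lowest share among the 8 members, for the other 7 of which at least 98.3% were unique.

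Of the effectors, Bax (ENSRNOG00000020876) was the steadiest member. The control lines 5-9, 2 and 16 had 1129, 1143 and 1082 normalized counts, and the PWS lines 3, 19-1 and 19-4 had 1156, 1108 and 1227. Its highest line was only 1.13-fold above its lowest, and the coefficient of variation was 2.87% among control lines and 5.14% among PWS lines. For Bax the log2 difference was 0.06 (SE 0.07, limma adjusted p = 0.811), and the 95% interval, from 0.927-fold to 1.17-fold, was the narrowest of the 8. It was 0.02 without PWS line 19-4 and 0.09 without PWS line 19-1.

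Bak1 (ENSRNOG00000000485) encodes BAK, the other pore-forming effector. The control lines 5-9, 2 and 16 had 355, 495 and 356 normalized counts, and the PWS lines 3, 19-1 and 19-4 had 376, 410 and 277. Control line 2 was the highest and PWS line 19-4 the lowest, while the remaining 4 lines lay between 355 and 410. Bak1 differed on the log2 scale by -0.18 (SE 0.18, limma adjusted p = 0.753), with an interval from 0.658-fold to 1.18-fold. It was -0.03 without control line 2 and -0.02 without PWS line 19-4, and -0.30 without PWS line 19-1.

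Among the BH3-only genes, Bad (ENSRNOG00000021147) encodes a protein that binds BCL2 and BCL-XL unless it is phosphorylated and held in the cytosol. Its normalized counts were 750.1, 836 and 825 in control lines 5-9, 2 and 16 and 819.8, 759 and 668 in PWS lines 3, 19-1 and 19-4. Only line 19-4 lay below all control lines. For Bad the log2 difference was -0.10 (SE 0.10, limma adjusted p = 0.732) with -0.02 without line 19-4 and -0.17 without line 3, and the interval ran from 0.796-fold to 1.09-fold.

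Bid (ENSRNOG00000012439) encodes the BH3-only protein that links death receptors to mitochondria after its cleavage by caspase-8. The control lines 5-9, 2 and 16 had 246, 281 and 264 normalized counts, and the PWS lines 3, 19-1 and 19-4 had 246, 265 and 333. PWS line 19-4 was above every control line, and the other PWS lines were within the control range. Bid differed on the log2 scale by 0.08 (SE 0.14, limma adjusted p = 0.863), with an interval from 0.853-fold to 1.32-fold, and it was -0.04 without line 19-4 and 0.17 without line 3.

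Bcl2l11 (ENSRNOG00000016551) encodes BIM, which binds all pro-survival members and is a known target of FOXO factors and of CHOP. Its values in control lines 5-9, 2 and 16 were 240.2, 312 and 223 normalized counts, and those in PWS lines 3, 19-1 and 19-4 were 225, 341 and 303. Line 19-1 was the highest, and the other subclone, 19-4, and control line 2 followed it. PWS line 3 was close to control line 16. For Bcl2l11 the log2 difference was 0.16 (SE 0.19, limma adjusted p = 0.796), with a 95% interval from -0.27 to 0.58 on that scale. It was 0.33 without PWS line 3, 0.30 without control line 2, 0.06 without control line 16 and 0.03 without PWS line 19-1.

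Bmf (ENSRNOG00000007529) encodes a BH3-only protein that is held at the actin-myosin cytoskeleton by dynein light chain in unstressed cells. It had the fewest reads of the family, 83 over the 6 lines, and 11, 36 and 9 in control lines 5-9, 2 and 16 against 9, 4 and 14 in PWS lines 3, 19-1 and 19-4. In normalized counts these are 10.4, 33.0 and 9.24, against 9.19, 4.78 and 12.7. Control line 2 stood apart, and its exact Poisson 95% interval of 23.1 to 45.7 normalized counts, which covers counting error alone, did not reach the interval of any other line (the highest upper bound was 21.4, in PWS line 19-4). Bmf differed on the log2 scale by -0.77 (SE 0.54, limma adjusted p = 0.633), the largest in size of the 8, with an interval from 0.250-fold to 1.38-fold. It was -0.22 without control line 2 and -0.42 without PWS line 19-1. Differences of Bmf inside that interval could not be told from none with these lines.

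**Figure D2:**
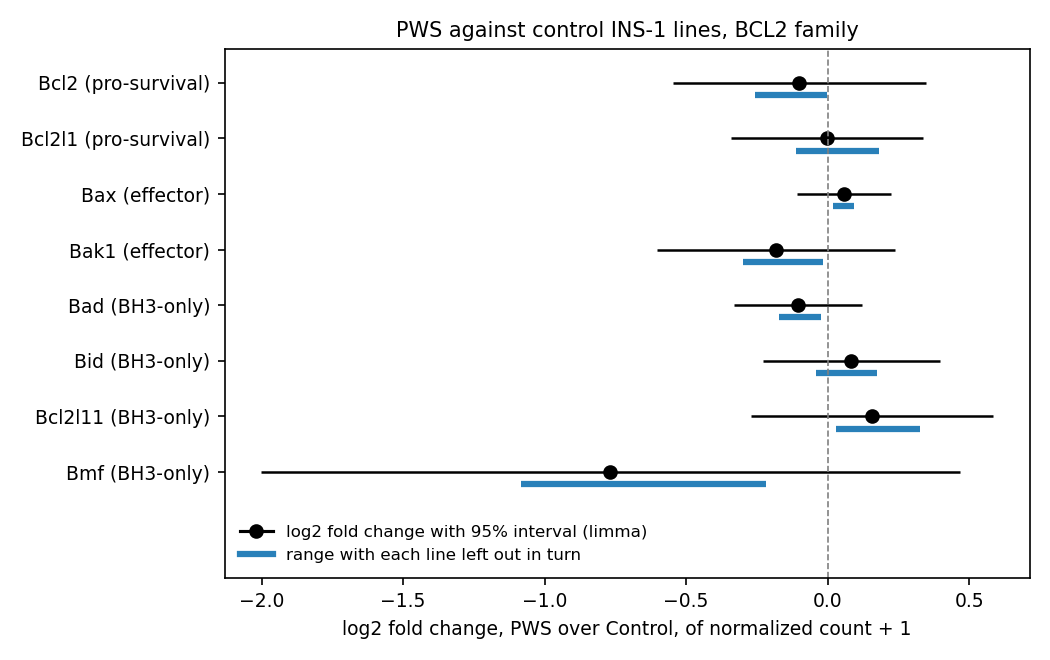
Log2 fold change (PWS over control lines, of normalized count + 1) of each of the 8 members with its 95% interval from limma (black, n = 3 lines per group) and the range of the fold change when each line was left out in turn (blue). All 8 intervals cover 0, from the narrowest for Bax (standard error 0.07) to the widest for Bmf (standard error 0.54).

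The intervals give the sizes of difference that these lines allow, gene by gene and without correction for the number of genes. For the 7 members other than Bmf, each of which had between 96 and 2410 reads in every line, the bounds on the log2 scale lay between -0.60 and 0.58. A missed threshold does not show that the levels were equal, and differences inside these bounds could not be told from none with 3 lines per group. Among all tested genes, 34.9% had a larger log2 fold change in size than Bak1, 40.3% a larger one than Bcl2l11 and 3.81% a larger one than Bmf.

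Several members had the same lines at their extremes. Control line 2 was the highest of the 6 lines for 4 of the 8 members (Bcl2l1, Bak1, Bad and Bmf), and it was the highest for 24.5% of all tested genes, more than any other line. PWS line 19-4 was the lowest for 3 members (Bcl2, Bak1 and Bad) and the highest for 2 (Bax and Bid), beside 20.3% and 18.9% of all tested genes. Control line 16 was also the lowest for 3 members (Bcl2l1, Bax and Bcl2l11), beside 13.5% of all tested genes. PWS line 3 was neither highest nor lowest for any of the 8. Over the 8 members, the median deviation from the control mean on the log2 scale was 0.19 in control line 2 and -0.10 in each of the control lines 5-9 and 16. It was -0.09, 0.03 and -0.17 in PWS lines 3, 19-1 and 19-4, within the range of the control lines but for line 19-4.

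The subclones 19-1 and 19-4, which share the same deletion, differed from each other by more than the PWS mean differed from the control mean for 8 of the 8 members. The same held for 60.9% of all tested genes. Bak1 was 1.48-fold lower in 19-4 than in 19-1 on the scale of normalized count + 1. For Bcl2 the difference was 1.43-fold in the same direction. Bid was 1.25-fold and Bmf 2.37-fold higher in 19-4, the latter from 4 and 14 reads.

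**Figure D3:**
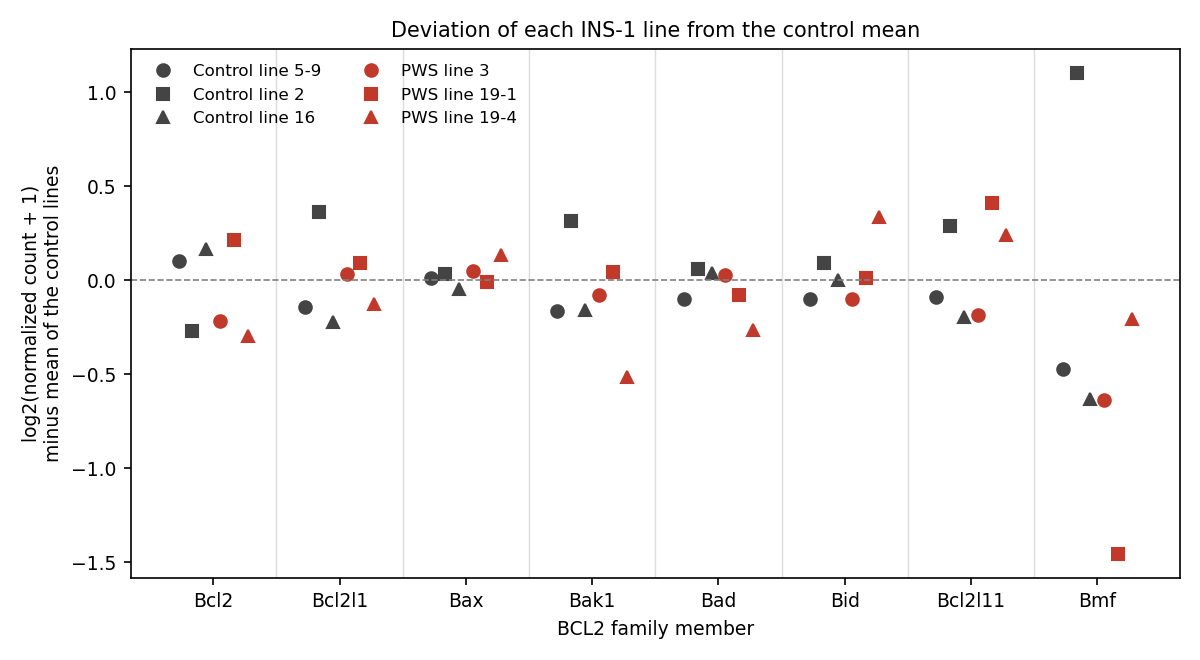
Deviation of each line from the mean of the control lines, in log2(normalized count + 1), for the 8 members, with control lines in grey and PWS lines in red. Red and grey points are interleaved for every member, and control line 2 (grey square) and PWS line 19-4 (red triangle) are most often at the edges.

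Ratios between pro-survival and pro-apoptotic transcripts, which depend on gene length and are compared here only between lines, were also computed. The ratio of Bcl2 to Bax in normalized counts was 0.108, 0.0827 and 0.119 in control lines 5-9, 2 and 16 and 0.0848, 0.120 and 0.0756 in PWS lines 3, 19-1 and 19-4. The groups overlapped, with means of 0.103 ± 0.0185 (SD, n = 3) and 0.0934 ± 0.0233 (SD, n = 3). The ratio of Bcl2l1 to Bax was 1.38, 1.94 and 1.36 in the control lines and 1.52, 1.66 and 1.28 in the PWS lines, in the same order, and the groups overlapped again. The last ratio, of Bcl2l11 to Bcl2l1, sets a pro-apoptotic transcript over a pro-survival transcript. For it the control lines lay close together at 0.154, 0.141 and 0.151, whereas the PWS lines had 0.128, 0.186 and 0.192. The subclones were above and PWS line 3 was below all control lines. These ratios were given no test, since the genes were chosen and the smallest p-value of an exact test with 3 lines a side is 0.1.

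The pattern of Bmf, the member with the largest fold change, was most like those of Rad23b, Yrdc and Ppm1j. Across the 6 lines the Pearson correlation of the log2 values with Bmf was 0.998 for Rad23b, 0.994 for Yrdc and 0.992 for Ppm1j. All of them were highest in control line 2 and lowest in PWS line 19-1, with 13750.5 and 9812 normalized counts for Rad23b. With 6 points that share their libraries and 83 tested genes at a correlation over 0.95, this is a description of the values alone.

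The other genes of the apoptosis machinery were described in 7 lists of 81 genes, 71 of which were tested. In limma, edgeR and DESeq2 alike, 0 of the 71 reached the adjusted threshold of 0.05. Without adjustment 9 had a p-value under 0.05 in limma (8 in edgeR and 8 in DESeq2), beside 11.3% of all tested genes. Of the 9, 7 were higher and 2 were lower in PWS lines, but the 11.3% was not split by direction, so this split has no background beside it. On average 33 of the 71 were higher and 38 were lower in PWS lines, beside 7678 and 7901 of all tested genes. The median log2 fold change of the 71 was -0.0013, and the groups did not overlap for 13 of them, beside 17.4% of all tested genes.

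**Figure D4:**
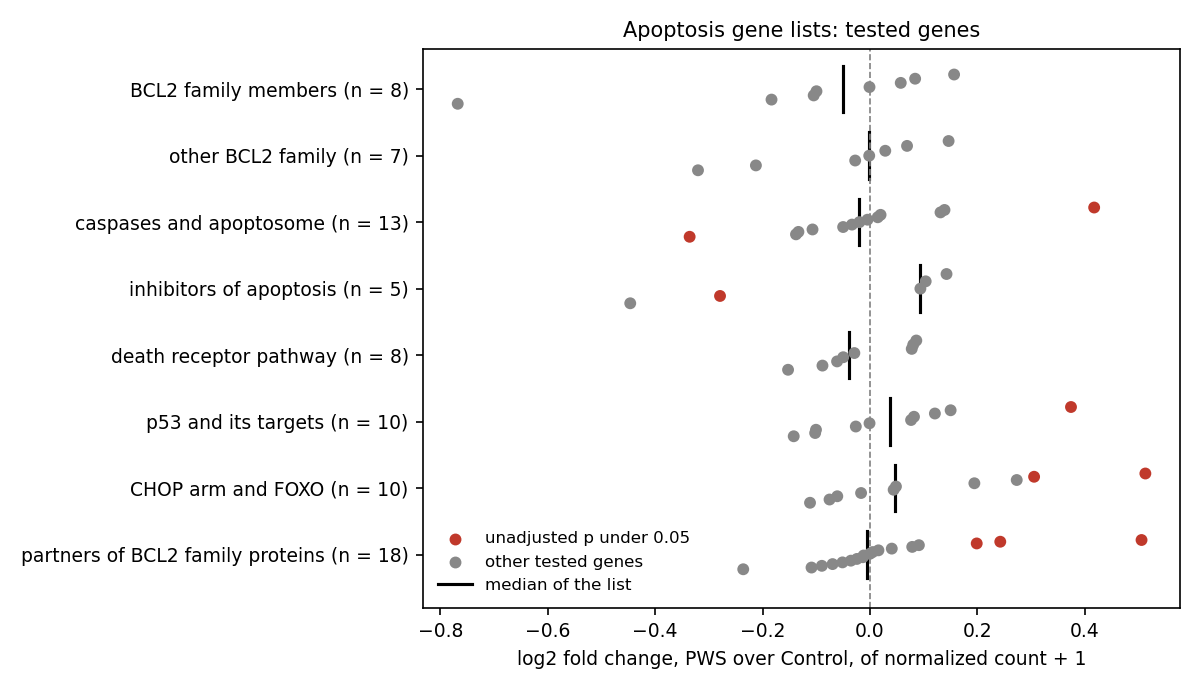
Log2 fold change (PWS over control lines, of normalized count + 1) of the tested genes of the BCL2 family and of 7 further apoptosis lists, 1 point per gene, with the median of each list as a black line. No point passed an adjusted p-value of 0.05, and the red points are the 9 genes with an unadjusted limma p-value under 0.05, none of them a member of the BCL2 family list.

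Among 12 other genes of the BCL2 family in the table, 7 were tested, with log2 fold changes from -0.32 for Bok (limma adjusted p = 0.560), a relative of BAX and BAK, to 0.15 for Bcl2l14 (limma adjusted p = 0.816). Bok was at -0.19 without control line 2 and at -0.18 without PWS line 19-1, and Bcl2l14 was at -0.04 without control line 2 and at 0.28 without control line 16. The 3 genes Bcl2a1, Bik and Pmaip1, the last of which encodes the BH3-only protein NOXA, had no read in any line, which allows up to 3 reads per line. Bcl2l2, which encodes the pro-survival protein BCL-W, averaged 3322 ± 210.3 across controls and 3259 ± 206 across PWS lines (normalized counts, SD, n = 3 each). Its log2 fold change was -0.03 (limma adjusted p = 0.928), with -0.08 without control line 2 and a changed sign without control line 16 (0.0091) and without PWS line 19-4 (0.03). Bcl2l2 was chosen here after its values were seen, for its known pro-survival role and its many reads.

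Downstream of the family, 13 of 15 caspases and apoptosome genes were tested. Of the reads of Casp6 0% were unique to the gene, and of those of Cycs, which encodes cytochrome c, 1.05%. Their values therefore rest on reads shared with other features, and both genes are named for this alone. With nonunique none counting 12 genes of the list were tested. Casp9, the caspase that the apoptosome activates, averaged 209 ± 26.9 across controls and 165 ± 18.7 across PWS lines (normalized counts, SD, n = 3 each), a log2 difference of -0.34 (SE 0.15, limma adjusted p = 0.439). It had the lowest log2 difference of the list, and its groups did not overlap. Casp8, the initiator caspase that cleaves BID, and Casp12 were under the filter, with 1 read each over all lines, in control line 16.

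All 5 inhibitors of apoptosis were tested, and the groups did not overlap for 4 of them, 2 in each direction, beside 8.43% of all tested genes higher and 9.01% lower. They ran from -0.45 for Birc3 (SE 0.22, limma adjusted p = 0.494) to 0.14 for Birc6 (SE 0.07, limma adjusted p = 0.510). Birc3, with 219 reads over all lines, had 33.9 normalized counts in control line 16 and 32.7 in PWS line 3, its nearest lines. The nearest control and PWS lines were at 13446 and 13664 for Birc6 and at 1435 and 1388 for Birc5. Without control line 5-9 Birc3 was at -0.34, and without control line 2 Birc6 was at 0.10. Birc5, which encodes survivin and is also a gene of dividing cells, averaged 1489 ± 68.9 across controls and 1231 ± 140.2 across PWS lines (normalized counts, SD, n = 3 each), a log2 difference of -0.28 (SE 0.09, limma adjusted p = 0.343). The death receptor genes, 8 of 10 tested, lay between -0.15 for Cflar, the inhibitor of caspase-8 activation, and 0.09 for Tnfrsf1a, a receptor of TNF. Without PWS line 19-4 Cflar was at -0.0087 and without PWS line 3 at -0.33, and Tnfrsf1a was at 0.06 without control line 16 or without PWS line 3. For none of the 8 was the unadjusted p-value under 0.05, beside 11.3% of all tested genes.

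Upstream, 10 genes of p53 and its targets ran from -0.14 for Tp53inp1 (limma adjusted p = 0.813) to 0.37 for Zmat3 (SE 0.13, limma adjusted p = 0.344), an RNA-binding protein induced by p53. Zmat3 averaged 311 ± 19.7 across controls and 405 ± 56.8 across PWS lines (normalized counts, SD, n = 3 each). It was the only one of the 10 with an unadjusted p-value under 0.05, a share near the 11.3% of all tested genes. Tp53inp1 was at -0.02 without PWS line 3, -0.06 without control line 2, -0.27 without control line 16 and -0.31 without PWS line 19-4. Of 10 genes of the CHOP arm and the FOXO factors, Foxo1, a transcription factor that can activate Bcl2l11, was the highest. It averaged 387 ± 38.3 across controls and 558 ± 121 across PWS lines (normalized counts, SD, n = 3 each), a log2 difference of 0.51 (SE 0.16, limma adjusted p = 0.320, DESeq2 adjusted p = 0.0963). Foxo1 had 462, 695 and 518 in PWS lines 3, 19-1 and 19-4, and its log2 difference was 0.34 without line 19-1. The lowest was Eif2ak3, which encodes the ER stress sensor PERK, at -0.11 (limma adjusted p = 0.635) and at -0.05 without PWS line 19-4. Ern1, which encodes the sensor IRE1, had a log2 difference of 0.31 (SE 0.09, limma adjusted p = 0.285).

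The last list held 18 genes for proteins that bind or regulate BCL2 family proteins, all of them tested. Their log2 fold changes ran from -0.24 for Bag1, a cochaperone named for binding BCL2 (limma adjusted p = 0.469), to 0.51 for Itpr2, an ER calcium channel that BCL2 can bind (limma adjusted p = 0.434). Itpr2 averaged only 99.3 ± 11.5 across controls and 145 ± 40.3 across PWS lines (normalized counts, SD, n = 3 each), and the groups overlapped. Itpr2 was at 0.30 without PWS line 19-1, and Bag1 at -0.11 without control line 2. Itpr1, a relative of Itpr2, averaged 6223 ± 328 and 7363 ± 389 (same units, SD, n = 3 each), without overlap, at a log2 difference of 0.24 (SE 0.07, limma adjusted p = 0.305). Groups without overlap and higher in PWS lines were seen for 8.43% of all tested genes. Huwe1, a ubiquitin ligase that can act on MCL1, had a log2 difference of 0.20 (SE 0.08, limma adjusted p = 0.406). Birc5, Ern1, Itpr1 and Huwe1 were named after their values were seen, as the genes with an unadjusted p-value under 0.05 that are not at an end of their list.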

How the data were processed

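Reads of the 6 rRNA-depleted, stranded paired-end libraries were trimmed by the authors with cutadapt, aligned with STAR 2.7.0e to the Ensembl rat genome with the transgenes and custom features added, and counted with HTSeq 0.11.2 (nonunique all or nonunique none) or RSEM 1.3.1. What the authors deposited for each line is a signal: read counts after scaling by the size factor that DESeq2 estimated. Both HTSeq tables returned whole reads for 100% of the values above 0 (tolerance 0.01 read), 26016478 to 36084261 per line under nonunique all counting. The deposited tables also hold the authors' means, log2 fold changes, scores (standard error and Wald statistic) and p-values of the same comparison, which were not used.

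The nonunique all table was analysed with limma 3.58.1 in R 4.3.3 (lmFit, eBayes with trend) on log2(normalized count + 1), a scale that understates changes of low genes, for the 15579 genes whose mean reached 5, with Benjamini-Hochberg adjustment over all of them and a threshold of 0.05. No p-value was adjusted over the family alone. The alternatives were edgeR 4.0.16 and DESeq2 1.42.0 on the recovered reads, other pseudocounts, filters, scaling and countings, an adjusted p-value of 0.1 in limma, subclones averaged, lines left out in turn, and the replicate number as a block. The fits were tested on simulated data. Labels do not say that replicate numbers mark shared cultures. The members and lists were chosen with earlier results of these data known. Named were all members, the 2 ends of each list by log2 fold change, any list gene past the threshold in limma or DESeq2, and the 3 genes most correlated with the member of largest change, with later choices stated as such. A gene that this rule named is not reported here. No sequence is printed because no result turned on one. No transcript length was at hand, so levels of different genes were not compared.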

Additional observations from a re-analysis of the deposited data

How the results depend on the processing

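The count of BCL2 family members past the threshold was 0 under every alternative run, as was that of each of the 7 apoptosis lists, and the family's median log2 fold change moved by less than the spread between lines (SD 0.14), although its sign changed with RSEM (0.037) and without control line 2 (0.024). The threshold of 0.1, which the paper used with DESeq2, was run here with limma alone. With DESeq2, Foxo1 of the CHOP arm and FOXO list had an adjusted p-value of 0.0963, under 0.1. Over all genes, 40 passed in limma, against 228 with DESeq2, 9 at a mean of at least 50 (which leaves out Bmf), 16 with nonunique none counting and 12 with RSEM. With 1 line left out in turn the count ran from 33 to 55. The cause of these shifts was not tested. A changed sign among members was limited to Bcl2 with RSEM (0.086), Bcl2l1 with RSEM (0.0092), with lines 19-1 and 19-4 averaged (0.0095) and with a line left out (-0.11 to 0.18), and Bid with a line left out (-0.042 to 0.17). Among the named list and marker genes run under the same alternatives it was seen with a line left out for Bcl2l14 (-0.041 to 0.28), Bcl2l2 (-0.080 to 0.026) and Mafa (-0.16 to 0.42). The lowest adjusted p-value of any member under any alternative was 0.512, for Bcl2l11. With the replicate number as a block, 36 of all genes and 0 members passed. Same-numbered lines had correlations of their deviations of 0.0035, 0.047 and 0.0051, so the numbers did not pair the lines. Bmf had the lowest depth, 4 to 36 reads per line, and moved from -0.77 to -0.22 without control line 2. The part of depth in its spread was not tested beyond the counting intervals.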
